A study of Mus musculus with 4 samples.

Results

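The genes described here are 10 of the transforming growth factor beta (TGF-beta) pathway: the ligand genes Tgfb1, Tgfb2, Tgfb3 and Inhba, the latency gene Ltbp1, the receptor genes Tgfbr1 and Tgfbr2, the signal transducer Smad3, and the feedback genes Smad7 and Skil. They were taken by gene symbol, and each matched 1 row of the 55335 genes listed. The series holds RNA-seq of 4 libraries from CT26, a colon carcinoma line of BALB/c mice whose labels also call it mesenchymal. CT26_102 and CT26_CTL are labelled FOSL2-WT with PBS, and CT26_102_R and CT26_CTL_R are labelled FOSL2-KO with chemoradiotherapy, so genotype and treatment change together with the suffix R and cannot be told apart. The labels do not say what the stem CT26_102 or the suffix R stands for, give no time after treatment and no drug or radiation dose, and do not say whether a line is 1 clone. The study's design text speaks of knockdown cells. Each title is 1 library, so every comparison sets 2 libraries against 2. The labels name no separate cultures. P-values of the fit with both stem and suffix rest on departure from additive effects of the 2, with spread borrowed from other genes. They do not rest on replicate libraries, and the spread may be technical.

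TGF-beta is secreted as a latent complex in which latent TGF-beta binding proteins tether the ligand to the matrix until integrins or proteases free it. The active ligand joins the type II receptor TGFBR2 with the type I receptor TGFBR1, which phosphorylates SMAD2 and SMAD3, and these enter the nucleus with SMAD4. The pathway limits itself through SMAD7, which blocks the receptor, and through SKIL (SnoN), which holds back Smad-driven transcription. In colorectal cancer the pathway is known for the loss of growth restraint in tumour cells and for excluding T cells from the tumour.

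Values are FPKM (fragments per kilobase of transcript per mega of fragments), a scale per length on which levels of different genes can be set side by side. Depth, read from the steps between low FPKM values, was between 21.61 and 26.37 M fragments per library (M for mega). In the labelled knockout libraries the Fosl2 transcript was not lost: its FPKM was 9.35 in CT26_102 and 16.0 in CT26_102_R, against 12.7 in CT26_CTL and 19.2 in CT26_CTL_R. The transcript level thus did not fall with the genotype label. FPKM per gene does not show whether the protein was lost, and genotype changed together with treatment. The libraries are called by their titles here. Of 8 colon epithelial markers, Epcam and Cdx2 were listed at 0 in all 4 libraries and Cdh1 was at most 0.0202 FPKM, whereas Krt18 (34.7 to 76.5) and Krt20 (24.5 to 36.8) were present. Vim, a mesenchymal marker, was between 503 and 782 FPKM. T and NK cell markers summed to at most 0.131 FPKM and endothelial markers to at most 0.563.

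Ltbp1 was the most abundant of the 10 genes in each library, and Tgfb2 the least. Ltbp1 stood at percentile 88.9 to 91.3 of the 27670 genes detected in any library, Tgfb2 at percentile 25.3 to 33.9. Next to Ltbp1 came Tgfb3 in CT26_102, Tgfbr2 in CT26_102_R, Tgfb1 in CT26_CTL and Inhba in CT26_CTL_R. In CT26_CTL the levels of Tgfb1, Tgfbr2, Smad3, Smad7 and Inhba lay between 6.56 and 7.73 FPKM, closer together than any of these genes was over its 4 libraries. The highest library exceeded the lowest by 1.30 times for Ltbp1, but by 4.74 times for Tgfb3 and 4.53 times for Tgfbr1.

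**Figure D1:**
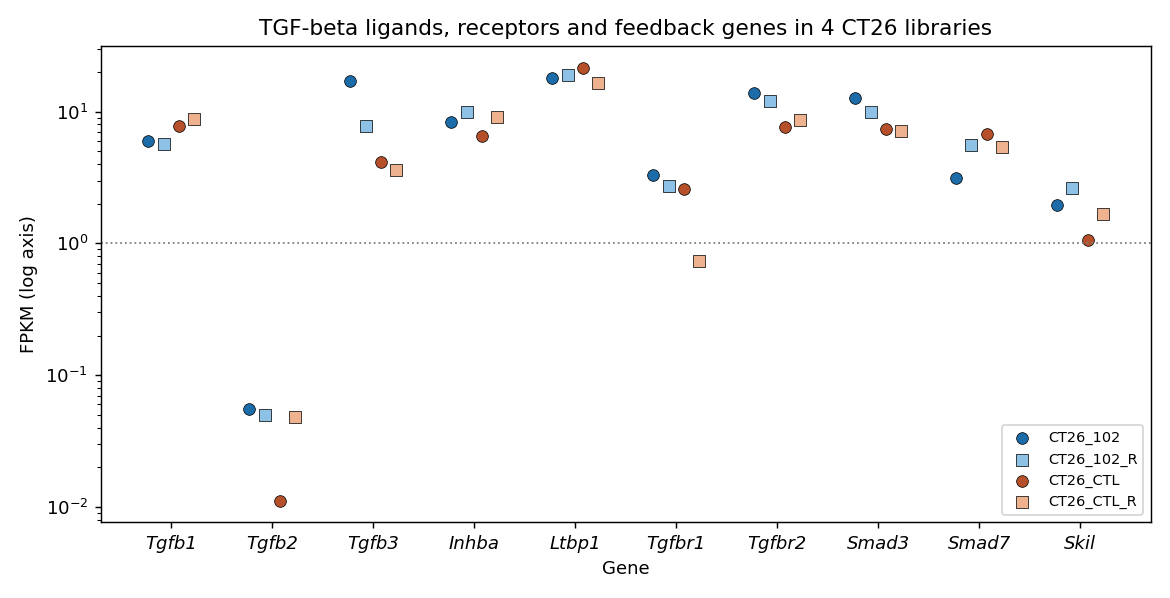
FPKM of the 10 genes on a log axis, with 1 point per library (circles, no suffix; squares, suffix R; blue, stem CT26_102; orange, stem CT26_CTL; dotted line, 1 FPKM). Tgfb2 lies below 0.06 FPKM in every library, Tgfb3 is highest in CT26_102 at 17.2, and Tgfbr1 is lowest in CT26_CTL_R at 0.732.

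Of the 10 genes, 9 reached 1 FPKM in at least 2 libraries and entered the fit across 11955 genes (limma on log2(FPKM + 1), with stem and suffix as terms). Between stems 3 of 9 rose in CT26_102, namely Tgfb3, Tgfbr2 and Smad3, and 0 fell, where 21.9% of all tested genes passed, 12.5% higher and 9.44% lower. The median log2 difference of the 9 between stems was 0.49, against 0.05 for all tested genes. All 9 lie in quintiles 3 to 5 of exonic length (1, shortest). Median stem differences of all genes there ran from 0.015 (quintile 3, without R) to 0.273 (quintile 5, with R). Between suffixes 0 of 9 passed, where 12.9% of all tested genes did. In that comparison 1 of the 9, Tgfbr1, had an unadjusted p under 0.05 in the limma fit, where 36.1% of all genes did, and 0 of 9 did with the suffix as the only term. In that fit 10.7% of all genes had an unadjusted p under 0.05, and 0.00836% were called. The median log2 difference between suffixes was -0.01, against 0 for all genes.

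The stem calls rested on the fit. An unadjusted p under 0.05 was reached by 6 of 9 between stems and by 40.4% of all genes. With the stem as the only term 0 of 9 were called, as were 0.284% of all genes, while 3 of 9 and 16.7% of all genes had an unadjusted p under 0.05. In that fit 0 of 9 were called whichever library was left out. Only Tgfb3 was called with a pseudocount of 0.1, with median-of-ratios rescaling or with a trend over gene length removed. The share of stem calls that were higher was 57.0% over all genes and 37.9% with upper-quartile rescaling, which moved the median of all genes by -0.113.

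**Figure D2:**
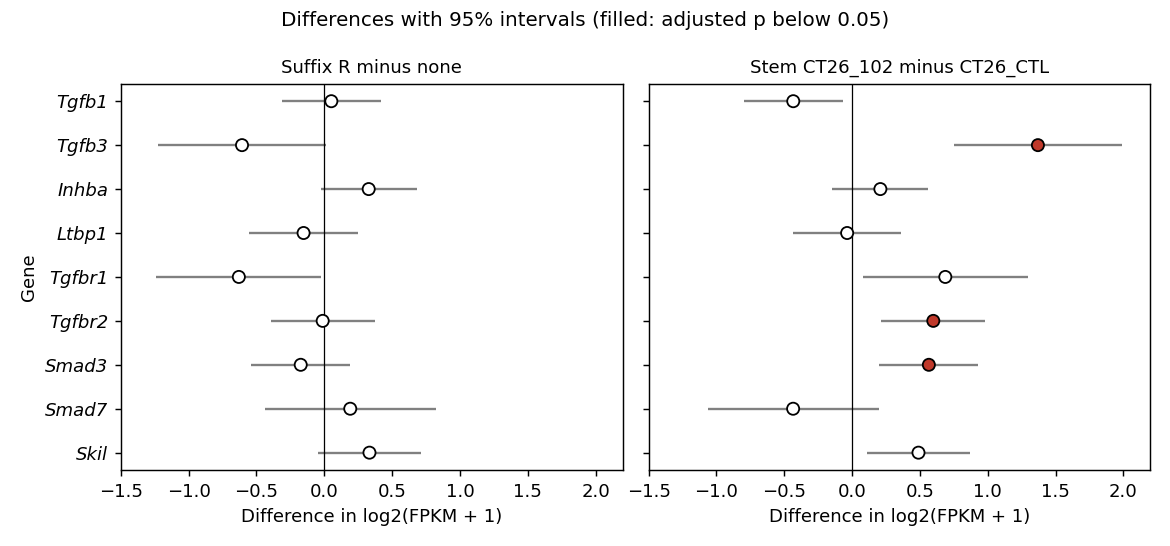
Differences in log2(FPKM + 1) of the 9 tested genes between suffixes (left) and stems (right), with 95% intervals of the limma fit (bars) and filled points where the adjusted p was below 0.05. No point is filled on the left, and Tgfb3, Tgfbr2 and Smad3 are filled on the right.

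Among the 3 ligand genes of the 10 that could be tested, Tgfb3 differed most between stems. Tgfb3 (ENSMUSG00000021253, GRCm38 chromosome 12, 86056745 to 86079041, minus strand) encodes the TGF-beta isoform known for its part in palate fusion. Its FPKM was 17.2 in CT26_102 and 7.77 in CT26_102_R, against 4.16 in CT26_CTL and 3.63 in CT26_CTL_R. Both CT26_102 libraries lay above both CT26_CTL libraries, a separation that 28% of all tested genes showed in that direction. The stem difference was 1.37 ± 0.24 on the log2 scale (SE, n = 2 libraries per stem, limma, adjusted p = 0.0236), or 4.14 times without R and 2.14 times with R as a ratio of FPKM. The call was lost with the stem as the only term (adjusted p = 0.223) and without the filter on low values (0.122).

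Between suffixes, Tgfb3 in CT26_102_R was 0.451 times its level in CT26_102, and in CT26_CTL_R it was 0.873 times that in CT26_CTL. The log2 difference was -0.61 ± 0.24 (adjusted p = 0.143), with a 95% interval from -1.22 to 0.01. The sum of 5 fibroblast markers had the same order over the libraries as Tgfb3. It was 72.2 FPKM in CT26_102 and 37.9 in CT26_102_R, against 28.3 in CT26_CTL and 23.1 in CT26_CTL_R. Col1a1 made up most of each sum, while Thy1 was at most 0.0277 and Dcn at most 0.142. Pdgfrb kept that order, and Pdgfra did not, at 0.734 FPKM in CT26_102_R and 1.04 in CT26_CTL. The part of these markers in the result was not tested. In bulk RNA, fewer cells of a type and less RNA per cell cannot be told apart.

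Tgfb1 (ENSMUSG00000002603, chromosome 7, 25687002 to 25705077, plus strand) encodes the most widely expressed isoform. Its FPKM was 6.03 in CT26_102 and 5.70 in CT26_102_R, against 7.73 in CT26_CTL and 8.84 in CT26_CTL_R. Both CT26_102 libraries lay below both others, as they did for 20.9% of all tested genes. The stem difference was -0.43 ± 0.14 and did not pass (adjusted p = 0.0859), though it did with upper-quartile rescaling (-0.554, adjusted p = 0.0485). The suffix difference was 0.05 ± 0.14 (adjusted p = 0.815), with an interval from -0.31 to 0.42.

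Tgfb2 (ENSMUSG00000039239, chromosome 1, 186622792 to 186705989, minus strand), the third isoform, was too low to test. It was at 0.0555, 0.0496, 0.0112 and 0.0479 FPKM in the pairs CT26_102 and CT26_102_R, then CT26_CTL and CT26_CTL_R. These values correspond to about 7.0, 6.9, 1.7 and 6.0 fragments, so no difference between libraries was detectable at this depth.

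The mix of Tgfb transcripts went with the stem. Tgfb3 made up 73.9% of the summed FPKM of Tgfb1, Tgfb2 and Tgfb3 in CT26_102 and 57.5% in CT26_102_R, but 35.0% in CT26_CTL and 29.0% in CT26_CTL_R. Tgfb1 made up 25.8%, 42.2%, 64.9% and 70.6% in the same order. The summed FPKM was 23.3 in CT26_102 and between 11.9 and 13.5 in the other libraries. These shares are a description and were not tested.

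**Figure D3:**
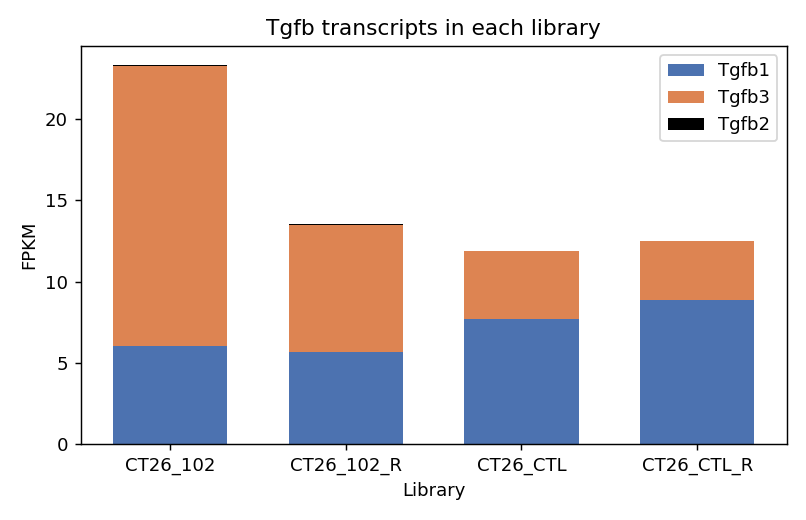
Stacked bars of the FPKM of Tgfb1 (blue), Tgfb3 (orange) and Tgfb2 (black) in each library, from 0. Tgfb3 is the larger part in the CT26_102 stem (73.9% and 57.5%) and the smaller part in the CT26_CTL stem (35.0% and 29.0%).

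Inhba (ENSMUSG00000041324, chromosome 13, 16011851 to 16031621, plus strand) encodes the subunit of activin A, a family ligand that signals through the same SMAD2 and SMAD3 from its own receptors. Its FPKM was 8.38 in CT26_102 and 9.97 in CT26_102_R, against 6.56 in CT26_CTL and 9.19 in CT26_CTL_R. Both libraries with suffix R lay above both without it, by 1.19 and 1.40 times within the stems, and 22.3% of all tested genes showed that separation. The log2 difference was 0.33 ± 0.14 (limma, adjusted p = 0.159), with an interval from -0.03 to 0.68, and the stem difference was 0.21 ± 0.14 (adjusted p = 0.308). It was the single member without overlap between suffixes in either direction, where 22.3% of all tested genes were higher and 21.1% lower without overlap. Its promoter is shown as the 250 bases before the RefSeq start (GRCm38.p6), 5′ to 3′, with a match to TATAAA in capitals.
Inhba (chr13:16011601-16011850, plus strand): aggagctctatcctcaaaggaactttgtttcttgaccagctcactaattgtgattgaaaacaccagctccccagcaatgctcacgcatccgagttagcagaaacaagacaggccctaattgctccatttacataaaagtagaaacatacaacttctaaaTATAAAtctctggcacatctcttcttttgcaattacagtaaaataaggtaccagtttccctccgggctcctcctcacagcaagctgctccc

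AP-1, the factor that contains FOSL2, binds TGAGTCA or its complement TGACTCA. RefSeq promoter windows were found for 7 of the 10 genes (9 windows), and 0 of the 9 held either word in the 250 bases before the start, against 4.46% of all 32851 windows. TATAAA or TTTATA was in the windows of Inhba and Tgfb2, and in 12.4% of all windows. The cAMP response word TGACGTCA was in 1 Ltbp1 window, and in 1.55% of all. The Smad palindrome GTCTAGAC was in none of the 9 and in 0.167% of all. The shorter Smad-type word CAGACA or its complement TGTCTG was in 1 window each of Tgfb2, Tgfbr1 and Ltbp1, and in 17.1% of all. A match or its absence concerns these letters in these windows alone.

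Ltbp1 (ENSMUSG00000001870, chromosome 17, 75005568 to 75392512, plus strand) encodes the binding protein that stores latent TGF-beta in the matrix. Its FPKM was 18.1 in CT26_102 and 18.8 in CT26_102_R, against 21.6 in CT26_CTL and 16.6 in CT26_CTL_R, and the groups overlapped in both divisions. The suffix difference was -0.15 ± 0.16 (adjusted p = 0.514), with an interval from -0.55 to 0.25. The stem difference was -0.04 ± 0.16 (adjusted p = 0.887), with an interval from -0.44 to 0.36. Set against the summed FPKM of the 3 Tgfb genes, Ltbp1 was at 0.775 times in CT26_102 and between 1.33 and 1.82 times in the other libraries.

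Both receptor genes were higher in both CT26_102 libraries than in both others, as were 28% of all tested genes. Only Tgfbr2 was called between stems. Tgfbr2 (ENSMUSG00000032440, chromosome 9, 116084293 to 116175360, minus strand), the ligand-binding type II receptor, was at 13.8 FPKM in CT26_102 and 12.1 in CT26_102_R, against 7.71 in CT26_CTL and 8.72 in CT26_CTL_R. It was higher in both CT26_102 libraries than in both others, with a log2 difference of 0.60 ± 0.15 (SE, n = 2 libraries per stem, adjusted p = 0.0481). The stem ratio was 1.80 without R and 1.38 with R. The call lay at the threshold: adjusted p was 0.0525 with a pseudocount of 0.1, 0.0684 with median-of-ratios rescaling, 0.0810 with upper-quartile rescaling and 0.264 with the stem as the only term. Between suffixes its difference was -0.01 ± 0.15 (adjusted p = 0.962), with an interval from -0.40 to 0.37, and with the length trend removed it was 0.128.

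Tgfbr1 (ENSMUSG00000007613, chromosome 4, 47353222 to 47414931, plus strand), the kinase that passes the signal to Smads, was lowest in 1 library. Its FPKM was 3.31 in CT26_102 and 2.74 in CT26_102_R, against 2.59 in CT26_CTL and 0.732 in CT26_CTL_R, the last from about 103 fragments. CT26_CTL_R stood below the others at 0.282 times CT26_CTL, whereas CT26_102_R was at 0.826 times CT26_102. The suffix difference was -0.63 ± 0.24 (adjusted p = 0.129). Both CT26_102 libraries lay above both CT26_CTL libraries, and the stem difference was 0.69 ± 0.24 (adjusted p = 0.0963). The FPKM ratio of Tgfbr2 to Tgfbr1 was 4.18, 4.41 and 2.97 in CT26_102, CT26_102_R and CT26_CTL, and 11.9 in CT26_CTL_R.

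Smad3 (ENSMUSG00000032402, chromosome 9, 63646767 to 63757994, minus strand), the transducer that binds DNA, was at 12.6 FPKM in CT26_102 and 10.0 in CT26_102_R, against 7.40 in CT26_CTL and 7.17 in CT26_CTL_R. Like Tgfbr2, it was higher in both CT26_102 libraries, with a log2 difference of 0.57 ± 0.14 (SE, n = 2 libraries per stem, adjusted p = 0.0487). The stem ratio was 1.71 without R and 1.40 with R. Adjusted p was 0.0524 with a pseudocount of 0.1, 0.0684 with median-of-ratios rescaling, 0.0842 with upper-quartile rescaling and 0.291 with the stem as the only term. The suffix difference was -0.17 ± 0.14 (adjusted p = 0.417), with an interval from -0.54 to 0.19.

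Gene length moved with both divisions. Over all tested genes, the median stem difference without R went from -0.18 in the quintile with the shortest exons to 0.271 in the longest, and with R from -0.145 to 0.273. The median suffix difference went the other way, running across the same quintiles from 0.178 to -0.144 within CT26_102 and, within CT26_CTL, from 0.123 to -0.143. Tgfbr2, with 8187 exonic bases, is in the longest quintile and Smad3, with 5542, in the fourth. With that trend removed, an alternative chosen after seeing the data, their stem differences were 0.367 (adjusted p = 0.140) and 0.437 (adjusted p = 0.0933), and neither passed. Tgfb3, with 3383 exonic bases, kept its call at 1.325 (adjusted p = 0.0223). Between suffixes 0 of 9 were called with the trend removed, 3 rather than 1 had an unadjusted p under 0.05, and the difference of Ltbp1 went from -0.152 to -0.012.

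The promoters of Smad3 and Tgfbr2, which were called together between stems, are shown as the 250 bases before the RefSeq start (GRCm38.p6), 5′ to 3′, with the GC box GGGCGG or its complement CCGCCC in capitals.
Smad3 (chr9:63757995-63758244, minus strand): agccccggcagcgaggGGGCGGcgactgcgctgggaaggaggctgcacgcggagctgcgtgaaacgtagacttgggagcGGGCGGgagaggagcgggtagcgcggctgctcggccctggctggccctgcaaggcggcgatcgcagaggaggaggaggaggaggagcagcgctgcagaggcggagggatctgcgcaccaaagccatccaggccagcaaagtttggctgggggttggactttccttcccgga
Tgfbr2 (chr9:116175364-116175613, minus strand): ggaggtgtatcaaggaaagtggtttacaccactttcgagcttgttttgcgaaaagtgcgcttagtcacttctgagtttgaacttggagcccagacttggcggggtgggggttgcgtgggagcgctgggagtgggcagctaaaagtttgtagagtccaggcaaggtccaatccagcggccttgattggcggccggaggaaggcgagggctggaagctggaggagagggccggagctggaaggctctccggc

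The Smad3 window held 2 GC boxes and the Tgfbr2 window 0, where 32.7% of all windows held at least 1. G and C made up 69.2% of the Smad3 window and 58.4% of the Tgfbr2 window, against a median of 52.4% over all windows and 43.2% for Inhba. The windows of Tgfb1 and Tgfbr1 held 5 and 2 GC boxes, the latter in 1 of its 2 windows. No word searched was found in the Tgfbr2 window.

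Of the feedback genes, Smad7 (ENSMUSG00000025880, chromosome 18, 75367529 to 75395935, plus strand), the inhibitory Smad, was lowest in CT26_102. Its FPKM was 3.16 in CT26_102 and 5.54 in CT26_102_R, against 6.74 in CT26_CTL and 5.42 in CT26_CTL_R, so the groups overlapped in both divisions. With R it was at 1.75 times its level without R in stem CT26_102 and at 0.804 times in stem CT26_CTL. Its suffix difference was 0.19 ± 0.25 (adjusted p = 0.605), with an interval from -0.44 to 0.82, and its stem difference -0.43 ± 0.25 (adjusted p = 0.245). The FPKM ratio of Smad3 to Smad7 was 4.0 in CT26_102 and 1.81, 1.10 and 1.32 in CT26_102_R, CT26_CTL and CT26_CTL_R.

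Skil (ENSMUSG00000027660, chromosome 3, 31095058 to 31122577, plus strand), the corepressor SnoN, was at 1.96 FPKM in CT26_102 and 2.65 in CT26_102_R, against 1.06 in CT26_CTL and 1.66 in CT26_CTL_R. It was higher with R in each stem, by 1.35 and 1.56 times, though the groups overlapped. The suffix difference was 0.33 ± 0.15 (adjusted p = 0.172), with an interval from -0.04 to 0.71. Both CT26_102 libraries lay above both others, and the stem difference was 0.49 ± 0.15 (adjusted p = 0.0711). With the length trend removed, the stem difference of Skil, which has 9694 exonic bases, was 0.221 (adjusted p = 0.333).

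**Figure D4:**
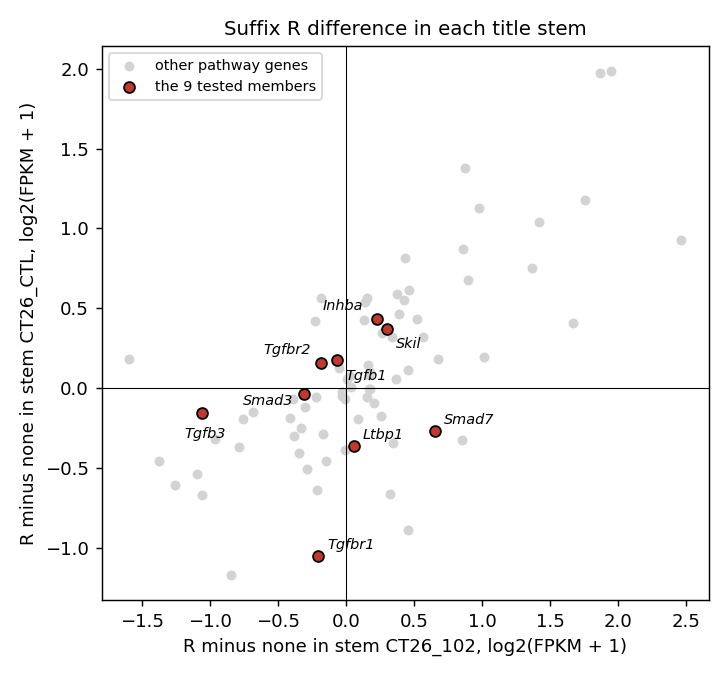
Differences in log2(FPKM + 1) between suffix R and none in stem CT26_102 (horizontal) and stem CT26_CTL (vertical) for the 9 tested genes (red) and 71 other pathway genes (grey), each from 1 pair of libraries. Tgfbr1 lies low on the vertical axis (-1.05), Tgfb3 far left (-1.06), and Smad7 in the quadrant of opposite directions (0.65 and -0.27).

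The other genes of the TGF-beta family pathways were taken from 7 lists with 112 genes, of which 71 could be tested. Between suffixes 11 of 71 rose and 4 fell, and 56 did not pass. Against the backgrounds of 7.57% higher and 5.32% lower over all tested genes, most of those that rose were targets. With the suffix as the only term 0 of 71 were called, and 7 were under 0.05 before adjustment in that limma fit, as were 10.7% of all genes. Of 21 tested targets of the pathway, 7 rose, 2 fell and 12 did not pass, with a median of 0.04.

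Il11, a cytokine induced by TGF-beta, was at 1.12, 10.7, 5.39 and 11.2 FPKM in the pairs CT26_102 and CT26_102_R, then CT26_CTL and CT26_CTL_R, an order kept for every 4 values listed from here on. It was higher with R in each stem, with a log2 difference of 1.70 ± 0.37 (SE, limma, adjusted p = 0.0481). Ccn2, which encodes the matrix protein CTGF, was at 23.6, 43.6, 12.8 and 24.2 FPKM (0.86 ± 0.12, adjusted p = 0.0263). Cdkn1a, which is also a p53 target, had the largest difference in the list, 1.97 ± 0.10 (adjusted p = 0.00886). Also among the targets that rose were Junb, Timp1 and Rhob, and those that fell were Col1a2, a chain of collagen I, and the repressor gene Bhlhe40.

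Textbook targets did not move as 1 group. Pmepa1, a target that restrains the pathway, was at 4.62, 5.25, 2.87 and 4.71 FPKM and did not pass in either comparison (0.36 ± 0.16 between suffixes, adjusted p = 0.182, and 0.34 ± 0.16 between stems, adjusted p = 0.190). Tgfbi was between 0.180 and 0.220 FPKM in all 4 libraries and was not tested, and Cdkn2b was listed at 0. Col1a2 was at 108, 49.6, 84.6 and 57.8 FPKM, a difference of -0.82 ± 0.17 (adjusted p = 0.0436). Of 5 myeloid markers Cd68 was higher with R in each stem, at 8.49, 63.9, 28.3 and 86.4 FPKM, and made up nearly all of the list's sum of 9.85, 66.2, 29.5 and 86.6. None of the other 4 was higher with R in both stems: Csf1r was at 1.10, 2.0, 0.965 and 0.159 FPKM, Ptprc was lower with R in each stem and at most 0.0880, Adgre1 was at most 0.132 and Itgam at most 0.161. The part of this in the target counts was not tested.

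Of 15 tested feedback genes and inhibitors 2 rose between suffixes and 0 fell, with a median of 0.14, where 7.57% of all tested genes rose. Fst, which encodes follistatin and traps activins, was at 5.56, 11, 4.49 and 13.3 FPKM (1.12 ± 0.17, adjusted p = 0.0295). Cd109, a coreceptor that promotes loss of TGF-beta receptors, was at 26.7, 53.5, 8.97 and 20.8 FPKM (1.05 ± 0.13, adjusted p = 0.0216). Of 10 tested receptors and co-receptors 1 rose, Acvrl1, the type I receptor ALK1 for BMP9, at 12.7, 24.5, 9.38 and 15.6 FPKM (0.79 ± 0.14, adjusted p = 0.0350).

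The counts in the next lists stand beside 7.57% higher and 5.32% lower between suffixes over all tested genes. Of 4 tested BMP targets 1 rose between suffixes: Id3, a dominant-negative helix-loop-helix factor, at 2.31, 10.2, 8.88 and 21.3 FPKM (1.47 ± 0.18, adjusted p = 0.0223). Of 10 latency and activation genes 1 fell, Ltbp4, at 20.4, 7.96, 7.53 and 4.6 FPKM (-0.93 ± 0.19, adjusted p = 0.0454). Of 3 tested genes on the ligand list 1 fell, Inha, the inhibin alpha subunit that opposes activin, at 4.35, 1.97, 5.04 and 1.68 FPKM (-1.01 ± 0.16, adjusted p = 0.0299). Of 8 Smads and cofactors 0 passed in either direction.

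Between stems, 18 of 71 other pathway genes were higher in CT26_102 and 7 lower, where 12.5% of all tested genes were higher and 9.44% lower. Among the 18, Gdf11 and Col3a1 met the filter on low values only through the CT26_102 libraries, so the filter favoured that direction for them. Latency and activation genes (5 of 10 higher, 0 lower, median 0.59) and receptors (5 of 10 higher, 0 lower, median 0.61) held most of the higher calls. Among marker sums of other cell types, those of fibroblasts and endothelium were also higher in stem CT26_102. The myeloid sum was lower there, at 9.85 and 66.2 FPKM against 29.5 and 86.6. Most of it was Cd68, at 8.49 and 63.9 against 28.3 and 86.4. Csf1r was higher there, at 1.096 and 1.998 against 0.965 and 0.159. Itgam was also higher, at 0.143 and 0.161 against 0.0914 and 0.0367. Ptprc and Adgre1 were lower in stem CT26_102 without R and higher with R. The sum of 5 fibroblast markers was 72.2 and 37.9 FPKM there against 28.3 and 23.1, most of it Col1a1, which is also on the target list. The sum of 4 endothelial markers was 0.369 and 0.563 FPKM against 0.0385 and 0.0868, and 0 of the 4 reached 1 FPKM in any library. Pecam1 made up most of it in stem CT26_102, at 0.369 and 0.482 against 0.00609 and 0.00566. Kdr was lower there, at 0 and 0.0111 against 0.0084 and 0.0127. Tek was at 0 and 0.0703 against 0.0240 and 0.0684, and Cdh5 was listed at 0 in all libraries. The part of these markers in the stem calls was not tested. With the stem as the only term 1 of 71, Thbs1, passed, as did 0.284% of all genes. Thbs1, which encodes thrombospondin 1 and can activate latent TGF-beta, was at 67.3, 59.0, 5.12 and 8.04 FPKM in the order used above (3.11 ± 0.21, adjusted p = 0.00434). Itgav, the alpha V integrin that pulls on the latent complex, was at 4.50, 5.06, 1.24 and 2.25 FPKM (1.10 ± 0.17, adjusted p = 0.0178). Emilin1, a matrix glycoprotein that limits TGF-beta processing, was at 6.37, 3.6, 2.0 and 1.71 FPKM (1.03 ± 0.18, adjusted p = 0.0241). The remaining 2 were Ltbp4 and the membrane protease gene Mmp14.

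Among the receptors, Nrp1, a coreceptor, was at 3.63, 4.86, 0.6 and 1.0 FPKM (1.54 ± 0.14, adjusted p = 0.00784). Tgfbr3, which encodes betaglycan and presents ligand to TGFBR2, was at 16.5, 16.9, 8.20 and 8.67 FPKM (0.91 ± 0.13, adjusted p = 0.0160). Eng, which encodes endoglin, was at 2.15, 4.04, 0.986 and 1.25 FPKM (0.91 ± 0.18, adjusted p = 0.0307), and Acvr1b and Bmpr1a were also higher. Betaglycan transcript was thus higher in stem CT26_102 at both suffixes, as were Tgfbr2 and Tgfb3.

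Of 3 tested genes on the ligand list, Gdf11 and Bmp1, a protease named with the BMPs, were higher in stem CT26_102. Over all tested genes 12.5% were higher there and 9.44% lower. Gdf11 was at 2.46 and 3.75 against 0.0654 and 0.153 FPKM (1.87 ± 0.17, adjusted p = 0.00784). It met the filter on low values only through the CT26_102 libraries, so its p-value cannot be taken as a test of that direction. Bmp1 was at 11.3 and 12.5 against 4.13 and 5.89 (1.12 ± 0.15, adjusted p = 0.0139). Of 8 Smads and cofactors 1 was higher, the acetyltransferase gene Crebbp (0.68 ± 0.15, adjusted p = 0.0350). Among feedback genes Cd109 was higher (1.40 ± 0.13, adjusted p = 0.00784) and Tgif1, a Smad corepressor, lower (-0.91 ± 0.13, adjusted p = 0.0165).

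Of 21 tested targets 4 were higher in CT26_102, 4 were lower and 13 did not pass, beside 12.5% higher and 9.44% lower over all tested genes. Higher were Col3a1, Col1a1, Ccn2 and Rhob, with Col1a1 at 1.11 ± 0.19 (adjusted p = 0.0220) and the collagen III gene Col3a1 at 53.0 and 19.8 against 0.568 and 0.144 FPKM (4.65 ± 0.24, adjusted p = 0.00325). Like Gdf11, Col3a1 met the filter on low values only through the CT26_102 libraries, so its p-value cannot be taken as a test of that direction. Among the lower were Timp1, Junb and Bhlhe40, with the protease inhibitor gene Timp1 at 79.1 and 206 against 249 and 420 FPKM (-1.33 ± 0.17, adjusted p = 0.0131). Of 4 BMP targets 2 were lower in CT26_102, Id3 (-1.29 ± 0.18, adjusted p = 0.0162) and Id1 (-1.21 ± 0.14, adjusted p = 0.0107), and 0 were higher.

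**Figure D5:**
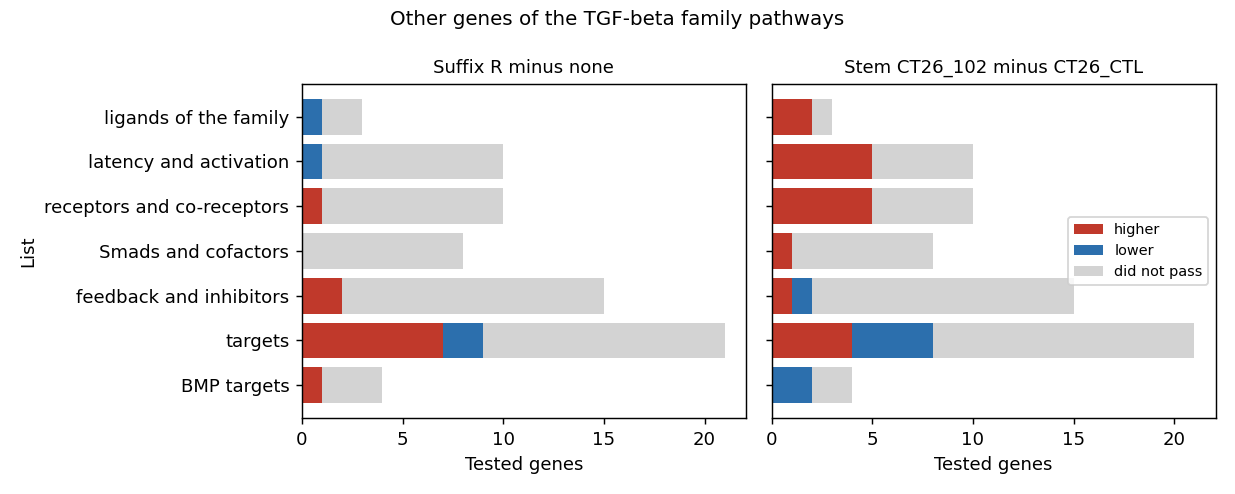
Tested genes of the 7 lists by result in each comparison (red, higher; blue, lower; grey, adjusted p not below 0.05), as stacked bars from 0. Targets hold 7 of the 11 higher calls between suffixes, and latency genes and receptors 10 of the 18 higher calls between stems.

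Genes with a like profile over the 4 libraries were sought by the Euclidean distance between centred log2(FPKM + 1) values, which is a description over 4 points. For Tgfb3 the closest of all tested genes were Aox1 (distance 0.158; 7.68, 3.81, 1.76 and 1.46 FPKM) and Lrp1 (0.170; 71.0, 31.8, 21.0 and 15.9 FPKM), and only these 2 lay within 0.2. For Tgfbr1 they were Ptbp1 (0.0775; 44.6, 39.7, 37.2 and 18.6 FPKM) and Gsk3b (0.0906; 8.67, 7.29, 6.42 and 2.77 FPKM), among 5 within 0.2. For Smad7 they were Mphosph10 (0.0821) and Rars (0.0926), among 27.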

How the data were processed

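The 4 CT26 libraries were made from RNeasy-extracted total RNA with a SMARTer kit, per the labels' protocols. The deposited values are FPKM per gene and library as the authors computed them. The aligner, counting tool and strand were not given in the sources used here. GRCm38 and mm10 are the builds in the submitters' processing notes, and positions and exonic lengths come from GENCODE M21 on GRCm38.

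The 10 genes, the lists and the tests were chosen with earlier results of these data known. Genes with FPKM of at least 1 in 2 or more libraries were analysed as log2(FPKM + 1), with no rescaling. The functions lmFit and eBayes (with trend) of limma 3.58.1 in R 4.3.3 fitted stem and suffix together, leaving 1 residual degree of freedom (their interaction) plus 4.01 prior degrees of freedom. P-values are two-sided, Benjamini-Hochberg adjusted over all 11955 genes, with a threshold of 0.05. Errors are standard errors of that fit. An exact permutation test of 2 against 2 cannot go below 0.333 and was not run. The fit was tested on simulated data with additive effects only, equal noise for every gene and no length trend. That test therefore cannot speak to the calls given here. Depth came from the commonest low value of FPKM times length in genes with 1 transcript of at least 300 bases; between 31.1% and 32.7% of low values lay within 0.05 fragments of a whole number, so depths and fragment numbers are approximate, and with no counts no counting intervals are given.

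All 10 genes are named. From each list of other genes the 3 with the largest change past the threshold are named, plus Ccn2, Tgfbi and Pmepa1; 1 further target is not reported here; further names were chosen after their values were seen. Nearest profiles are given for the 3 genes with the widest range.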

Additional observations from a re-analysis of the deposited data

Results flagged for a closer look

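For 4 of the 9 tested genes the difference between suffix R and none had opposite directions in the stems, as it did for 22.6% of all tested genes. Each stem holds 1 pair of libraries, so the difference between stems was not tested. For Smad7 the log2 difference was 0.65 in stem CT26_102 and -0.27 in stem CT26_CTL, which are 0.92 apart. For Ltbp1 it was 0.06 and -0.36 (0.42 apart). For Tgfbr2 it was -0.18 and 0.16 (a difference of -0.34), and for Tgfb1 -0.07 and 0.17 (a difference of -0.24).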

How the results depend on the processing

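The count of members called between suffixes was 0 under every alternative run. Between stems it was 3, and it was 0 with the stem as the only term and with no filter on low values, 1 with a pseudocount of 0.1, with median-of-ratios rescaling and with the length trend removed, and 2 with upper-quartile rescaling (Tgfb3 higher and Tgfb1 lower). With the tested division as the only term, the count over all genes went from 1541 to 1 between suffixes and from 2623 to 34 between stems, and that of other pathway genes from 15 to 0 and from 25 to 1. With no filter all of these counts were 0, at an adjusted p from limma, where 4937 genes between suffixes and 5802 between stems had an unadjusted p under 0.05. Both terms with 1 library left out leave no residual degree of freedom. With the tested division as the only term and 1 library left out, between 2 and 11 genes passed between suffixes and between 0 and 16 between stems, with 0 other pathway genes between suffixes, 0 to 1 between stems, and 0 members in either. Among single genes, the suffix difference of Tgfbr2 turned from -0.01 to 0.128 with the length trend removed. The cause was not tested in any of these cases. Among the members, depth limits what can be said of Tgfb2.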

Other observations

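Among 71 other tested pathway genes, 14 had suffix R differences of opposite sign in the stems, as did 22.6% of all tested genes. Of the 71, 4 had differences both of opposite sign and at least 0.8 apart on the log2 scale, where 3.4% of all tested genes did. These genes were named after their values were seen, and none of the differences was tested. Ski, the corepressor related to Skil, was at 18.2 FPKM in CT26_102 and 5.35 in CT26_102_R, against 9.37 in CT26_CTL and 10.7 in CT26_CTL_R. Smurf1, the ubiquitin ligase that SMAD7 brings to the receptor, was at 12.9, 24.1, 32.9 and 26.1 FPKM in that order, lowest in CT26_102 and highest in CT26_CTL, as Smad7 was. Ppm1a, a phosphatase reported to act on SMAD2 and SMAD3, was at 10.3, 14.5, 11.4 and 5.69 FPKM. Snai2, a repressor of epithelial genes, was at 11.3, 14.3, 29.3 and 18.1 FPKM. Smad6, the inhibitory Smad of the BMP branch, did not pass the filter on low values and was at 1.61, 0.763, 0.103 and 0.0998 FPKM.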
